A study of Homo sapiens with 36 samples.

Results

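The comparison described here sets the H3K27ac landscapes of both sorted subpopulations of SUM-229PE against each other after 14 days of drug, and asks whether they had become more alike than before treatment. SUM-229PE is a breast cancer line of the triple-negative class, which lacks both hormone receptors and HER2 amplification, and was grown out of a pleural effusion. Per the labels, POS cells carried the surface proteins EpCAM and CD49f and NEG cells lacked both. The groups were POS cells after 14 days at 10 nM trametinib (POS day 14, 2 libraries), NEG cells after the same treatment (NEG day 14, 2 libraries), and both subpopulations at day 0 without drug (POS day 0 and NEG day 0, 2 libraries each). The day 14 comparison used 4 of the 36 samples of the series. Libraries that these groups do not share served to class regions: H3K27ac in untreated DMSO cells (3 POS, 2 NEG) and the transcription factor JUNB in untreated cells (2 POS, 2 NEG). H3K27ac after 24 hours at 30 nM trametinib (3 POS, 2 NEG) gave a gap that was set beside the day 14 gap. All cells came from 1 line and were cultured in the same medium at low passage. Day 14 and drug cannot be told apart, because no day 14 library without drug was used.

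H3K27ac is an acetyl mark on histone H3 that sits at active promoters and enhancers, and the set of marked enhancers is a common signature of cell identity. EpCAM is an epithelial adhesion protein and CD49f is an integrin subunit that anchors epithelial cells to the basement membrane. Trametinib inhibits MEK, the kinase that activates ERK, and ERK signalling feeds AP-1 transcription factors such as JUNB, which bind many enhancers of breast epithelial and mesenchymal cells.

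POS and NEG were counted over separate region lists, with 44343 regions for POS and 28239 for NEG, each 1001 bases wide. Regions were matched between the lists 1 to 1 where they overlapped by at least 50% of both, which gave 15794 regions, or 35.6% of the POS list and 55.9% of the NEG list. Starts were identical in 11696 matched regions (74.1%). In 11669 of those (99.8%) the names of both regions carry the same day and replicate number, against 361 of the 4098 other matched regions (8.81%). Most matched positions were therefore not set independently in the POS and NEG lists. Libraries held 1249197 to 3251050 counts in the matched regions. The day 14 replicate pairs varied little beyond counting noise, with chi-square values per degree of freedom at 1.12 in POS and 1.09 in NEG. The day 0 pairs varied more, at 1.60 in POS and 1.25 in NEG. The labels do not say whether replicates came from separate cultures, so the p-values measure only the spread between these libraries. The regions could not be assigned to genes, so the sort markers were not checked at their own loci. As a check of the labels, the POS minus NEG gap at day 0 was set against the gap in the untreated DMSO libraries over 12981 regions, and the correlation across regions was 0.95 with a slope of 0.97. All coordinates are of the build hg19, as the POS list gives them.

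The subpopulations stayed distinct after 14 days. The gap between them, the log2 difference POS minus NEG, had a median absolute size of 1.02 at day 14, against 0.716 at day 0, and an SD over regions of 1.53, against 1.20. It was larger in absolute size at day 14 in 10087 of 15794 regions (63.9%). H3K27ac was higher in POS in 6157 regions (39.0% of those tested) and lower in POS in 6310 (40.0%) at day 14, at an adjusted p under 0.05 in edgeR's quasi-likelihood test (Benjamini-Hochberg over all matched regions). Regions past that threshold are called here, and they made up 78.9% of all matched regions at day 14 and 72.8% at day 0. At day 0 it was higher in POS in 5731 regions (36.3%) and lower in 5761 (36.5%). Gaps of at least 2-fold that passed the test numbered 8035 (50.9%) at day 14, against 5764 (36.5%) at day 0.

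**Figure D1:**
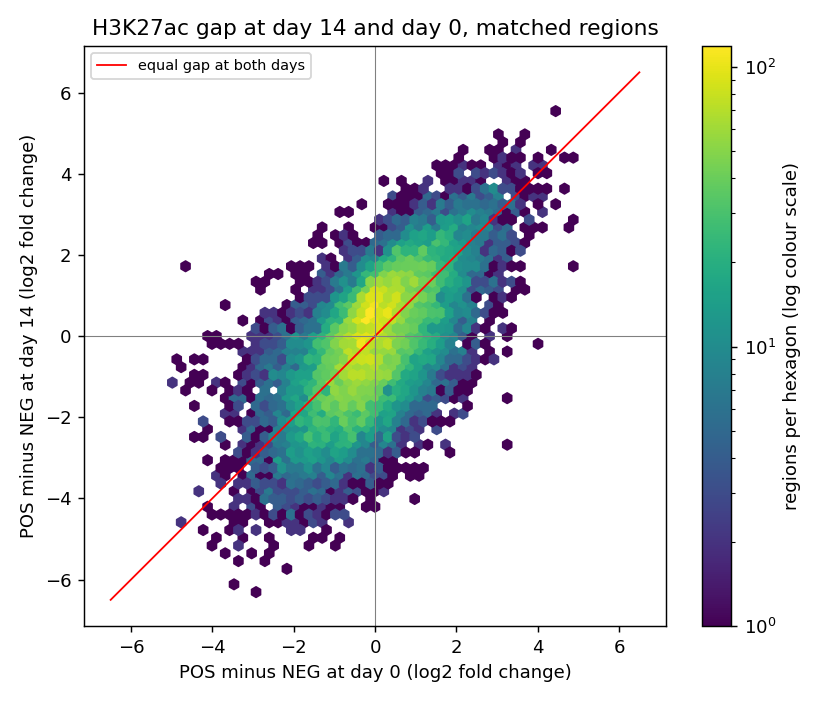
Log2 difference POS minus NEG at day 14 (vertical axis) against that at day 0 (horizontal axis) over 15794 matched regions; the colour gives the number of regions per hexagon on a log scale and the red line marks equal gaps. The cloud is taller than wide, with an SD of 1.53 at day 14 and 1.20 at day 0, and regions lie in all 4 quadrants.

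The scale matters for the direction of single gaps. Levels were scaled so that the matched regions were balanced between libraries, and 49.4% of the day 14 calls were then higher in POS. Scaling by total counts in the matched regions made that share 36.2%, and scaling by each full list made it 21.1%. Those scalings shifted the median gap of all regions to -0.45 and -0.98 at day 14, and to -0.12 and -0.46 at day 0. The size of the gap relative to day 0 moved little with that choice, and the median absolute gap was 1.43 and 1.49 times that at day 0, against 1.42 times with the balanced scale.

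Single libraries gave the same order. The root mean square log2 difference between a POS and a NEG library was 1.50 for all 4 pairs at day 14, against 1.13 to 1.22 for the 4 pairs at day 0, while replicates of 1 group differed by 0.256 to 0.301. Pearson's r across regions between a POS and a NEG library was 0.440 to 0.448 at day 14, against 0.519 to 0.527 at day 0. NEG day 14 libraries lay closer to POS day 0 (1.17 to 1.26) than to POS day 14, and POS day 14 lay farthest from NEG day 0 (1.70 to 1.72). The distance between days was 1.28 to 1.31 within POS and 0.687 to 0.709 within NEG.

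The spread of levels over regions moved with the gap. The SD of the log2 level was 1.63 in both POS day 14 libraries and 1.03 and 1.04 in the NEG day 14 libraries, against 1.32 and 1.21 in POS day 0 and 1.15 and 1.10 in NEG day 0. On the balanced scale, strong regions had positive median gaps at day 14 and weak regions negative ones. In 5 equal groups of regions from the weakest to the strongest mean level, the median gap at day 14 was -0.86, -0.42, -0.02, 0.43 and 0.68, and at day 0 it was -0.39, -0.18, 0.04, 0.20 and 0.13. The mean level came from the same libraries as the gaps, so a wider spread of levels in POS by itself gives such a trend. The trend is therefore no separate result. With all libraries forced to 1 common spread by quantile normalization, the median absolute gap was 0.819 at day 14 and 0.733 at day 0, and it was larger at day 14 in 54.8% of regions. With a scaling that follows the level (cyclic loess) it was 0.905 and 0.705, and larger in 60.1% of regions. The part of antibody efficiency or of the fragments outside the regions in these spreads was not tested.

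**Figure D2:**
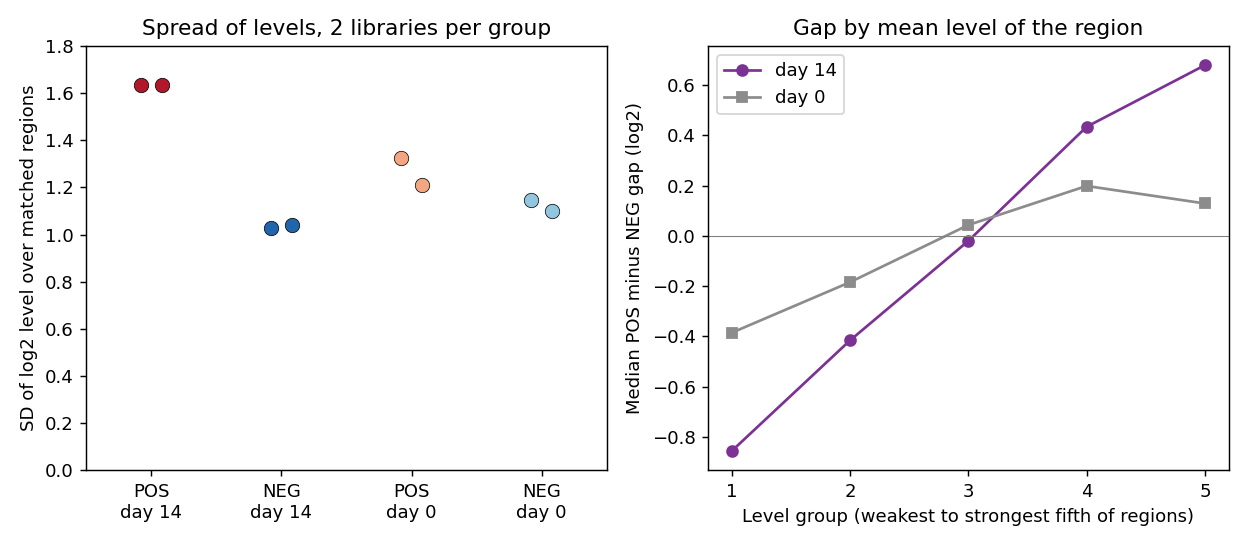
Left, SD of the log2 level over 15794 matched regions in each of the 8 libraries (1 point per library). Right, median POS minus NEG gap (log2) at day 14 and day 0 in 5 groups of regions by mean level; the day 14 line climbs from -0.86 to 0.68 and the day 0 line stays between -0.39 and 0.20. The mean level is over the same 8 libraries, so the right panel restates the spreads on the left in part.

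The list that a matched region came from also moved with its gap. The names of 10396 matched regions carry day 0 in both lists, and their median gap was -0.45 at day 14 and -0.00190 at day 0. The names of 2809 carry day 14 in both lists, and their median gap was 0.69 at day 14 and -0.16 at day 0. On the balanced scale of all matched regions, their median absolute gap was 0.962 at day 14 and 0.711 at day 0. It was larger at day 14 in 58.5% of them. Fitted and scaled on their own, which takes out their median shift, the regions with day 14 names had a median absolute gap of 0.770 at day 14 and 0.720 at day 0. That is a ratio of 1.07, and the gap was larger at day 14 in 51.3% of them. Among the settings run over the whole set of regions fitted, this gave the smallest ratio. Classes of regions could lie below it: in the 2323 regions higher in POS by at least 2-fold in DMSO the median absolute gap was 1.41 at day 14 and 1.59 at day 0, and in the 2273 lower by at least 2-fold it was 1.44 and 1.47.

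Most gaps kept their direction. Of 9368 regions called at both days, 7769 (82.9%) had the same direction and 1599 (17.1%) the opposite one. Of the 5731 regions higher in POS at day 0, 3841 (67.0%) were higher in POS at day 14 too, 1023 were not called and 867 (15.1%) were lower. Of the 5761 regions lower in POS at day 0, 3928 (68.2%) were lower at day 14 too, 1101 were not called and 732 (12.7%) were higher. A further 3099 regions were called at day 14 but not at day 0, and 2124 at day 0 but not at day 14. Across regions the day 14 gap followed the day 0 gap with r = 0.65, a description over 15794 regions that share libraries within each day.

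The change of the gap was tested directly as the day 14 gap minus the day 0 gap. On the balanced scale it passed in 9891 regions (62.6%), of which 4855 moved toward POS (30.7%) and 5036 toward NEG (31.9%). That split depends on the scale. With scaling by each full list the median gap of all regions was -0.98 at day 14 and -0.46 at day 0. Gaps widened with an unchanged sign in 4364 of the 9891 regions (44.1%), where the median absolute gap was 1.90 at day 14 and 0.640 at day 0. They narrowed in 1688 (17.1%), where it was 0.532 at day 14 and 1.67 at day 0, and DESeq2 called 1089 narrowed gaps. Both classes were set by these same gaps, so which day had the larger median follows from the class. The estimate had the opposite sign at both days in the other 3839 (38.8%), whether or not each day passed its own test. POS was the subpopulation whose level differed more between the days in 8067 of the 9891 regions (81.6%). The median absolute difference between days there was 1.15 on the log2 scale in POS and 0.397 in NEG. Over all matched regions it was 0.876 in POS and 0.407 in NEG, so POS differed more there too. These values are on the balanced scale, where levels in POS had a wider spread at day 14 than at day 0. The share of all matched regions in which POS differed more was not computed. The count was not repeated under other scalings.

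The untreated DMSO libraries, which enter neither day, sorted the regions by their starting identity (76.5% of all 57023 regions of that list were called, 38.6% higher and 38.0% lower in POS). In 4255 regions higher in POS in DMSO, the median gap was 0.93 at day 14 and 1.12 at day 0. At day 14, 2738 of them were still higher in POS, 702 were lower and 815 were not called. In 4741 regions lower in POS in DMSO, the median gap was -0.94 at day 14 and -0.93 at day 0. At day 14, 3013 of them were lower in POS, 778 were higher and 950 were not called. The median absolute gap was 1.18 at day 14 and 1.12 at day 0 in the class higher in POS, and 1.06 and 0.929 in the class lower in POS. In the 3985 regions not called in DMSO it was 0.838 at day 14 and 0.262 at day 0, where the small day 0 value follows from the choice of regions with no gap in untreated cells. There 1641 regions were higher in POS at day 14 and 1392 were lower.

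Measured from the median of all regions, so that the shift of each scaling drops out, the class higher in POS had a median gap of 0.98 at day 14 and 1.15 at day 0. The class lower in POS had -0.89 and -0.90. Cyclic loess gave 0.86 at day 14 and 1.12 at day 0 for the class higher in POS, and -0.76 and -0.87 for the class lower in POS. With the shift left in, scaling by each full list put the day 14 median of the class higher in POS at -0.0024, so the direction of that class depended on the scale. In regions not called in DMSO the median absolute gap, measured the same way, was 0.732 at day 14 with cyclic loess and 0.846 or above with the other scalings, and at day 0 it was 0.281 or below.

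**Figure D3:**
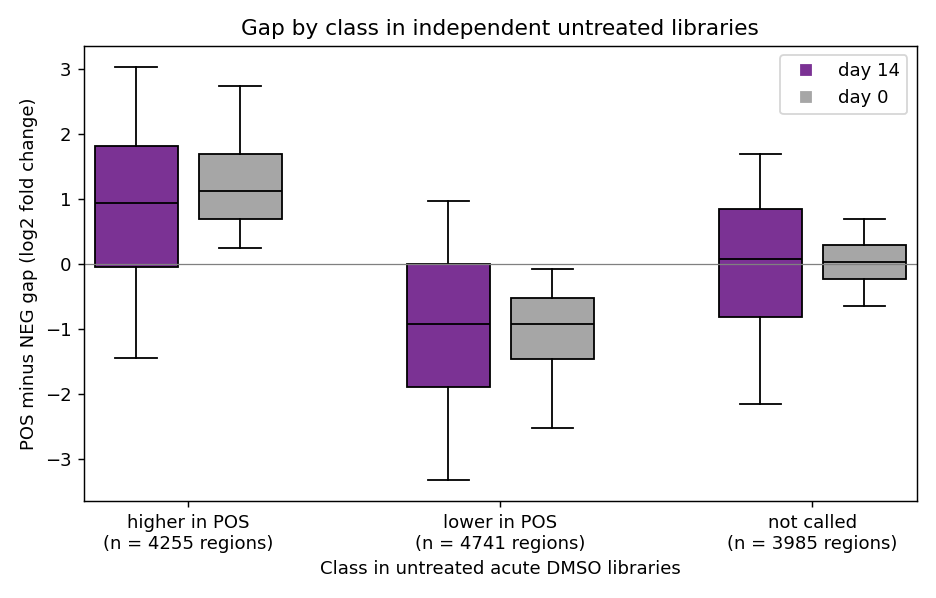
POS minus NEG gap (log2) at day 14 and day 0 for regions classed in the untreated DMSO libraries; boxes give the quartiles and median, whiskers the 5th and 95th percentiles. Medians are 0.93 and 1.12 in the class higher in POS, -0.94 and -0.93 in the class lower in POS, and the box of the class not called is broader at day 14.

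JUNB binding in untreated cells gave a further class that no H3K27ac library entered (57.9% of 141580 sites were called, 28.5% higher and 29.4% lower in POS). A JUNB site lay in 14380 of the matched regions. Where its strongest site was higher in POS (2543 regions), the median gap was 1.17 at day 14 and 1.28 at day 0, with 1785 regions higher and 316 lower in POS at day 14. Where it was lower in POS (4494 regions), the median gap was -1.17 at day 14 and -0.87 at day 0, with 3140 regions lower and 556 higher. Where the site was not called (7309 regions) the median gap was 0.16 at day 14 and 0.08 at day 0. In the 1414 regions with no JUNB site it was 0.16 at day 14 and -0.11 at day 0.

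Single regions are given here from those whose mean level was at or above the median, except the last group, which had no change called. The 8 with the largest gap higher in POS at day 14 had log2 gaps of 4.55 to 5.44, and their highest adjusted p was 7e-86 (edgeR). At chr5:173886680-173887681 the H3K27ac level was 665 and 655 CPM (counts scaled by library size in matched regions) in POS day 14 and 16.3 and 14.2 CPM in NEG day 14. The gap was 5.44 ± 0.16 (SE), against 4.44 ± 0.18 at day 0, where POS had 221 and 181 CPM and NEG 7.31 and 11.9 CPM. POS was far above NEG in every library at both days, and was higher still at day 14. At chr1:209556676-209557677 the level was 679 and 703 CPM in POS day 14 and 23.4 and 20.6 CPM in NEG day 14, with a gap of 4.97 ± 0.15. At chr17:80453658-80454659 it was 321 and 311 CPM in POS day 14 and 13.5 and 7.74 CPM in NEG day 14, with a gap of 4.91 ± 0.18. Day 0 levels in POS were lower at both: 358 and 313 CPM at the first and 81.4 and 72.7 CPM at the second.

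The regions chr7:104602685-104603686, chr7:55087436-55088437, chr2:192066808-192067809, chr1:96208225-96209226 and chr10:116126558-116127559 completed this group. In 7 of the 8 the gap grew from day 0 by 0.99 to 1.88, which passed the test, and at chr2:192066808-192067809 the change was 0.41 with an adjusted p of 0.18 (edgeR). In 6 of the 8 a JUNB site was higher in POS in untreated cells, as in 16.1% of all matched regions, and in the other 2 there was no JUNB site. The change called at chr5:173886680-173887681 fell below the threshold without NEG day 14 replicate 2 (0.90, adjusted p = 0.0572 by edgeR) and without NEG day 0 replicate 2 (0.65, adjusted p = 0.206), and with scaling by total counts (0.67) or by full lists (0.49). At chr1:96208225-96209226 it did so without NEG day 14 replicate 1 (0.89, adjusted p = 0.0636 by edgeR) and without NEG day 0 replicate 2 (0.84, adjusted p = 0.0857), with both of those scalings (0.75 and 0.57) and at equal depth (0.84).

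The 8 regions with the largest gap lower in POS had log2 gaps of -6.25 to -5.18, with a highest adjusted p of 1.4e-78 (edgeR). At chr8:85809794-85810795 the level was 2.39 and 3.04 CPM in POS day 14 and 195 and 224 CPM in NEG day 14, with a gap of -6.25 ± 0.23. At day 0 it was 17.9 and 18.9 CPM in POS and 143 and 137 CPM in NEG, with a gap of -2.93 ± 0.15. POS was near the floor at day 14, on 5 and 6 counts, while NEG stayed high. At chr2:105514332-105515333 the level was 2.86 and 2.03 CPM in POS day 14 and 160 and 173 CPM in NEG day 14, with a gap of -6.05 ± 0.25 against -3.52 ± 0.14 at day 0. At chr7:40260834-40261835 it was 6.20 and 3.55 CPM in POS day 14 and 289 and 288 CPM in NEG day 14, with a gap of -5.86 ± 0.20 against -2.17 ± 0.12 at day 0.

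The others were chr6:78166418-78167419, chr10:79049779-79050780, chr16:57033876-57034877, chr8:131244423-131245424 and chr10:128946626-128947627. In all 8 the gap was larger at day 14 than at day 0, with changes of -3.69 to -1.54 that passed the test. A JUNB site was lower in POS in untreated cells in 7 of the 8, as in 28.5% of all matched regions, and at chr10:128946626-128947627 the JUNB site was not called.

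**Figure D4:**
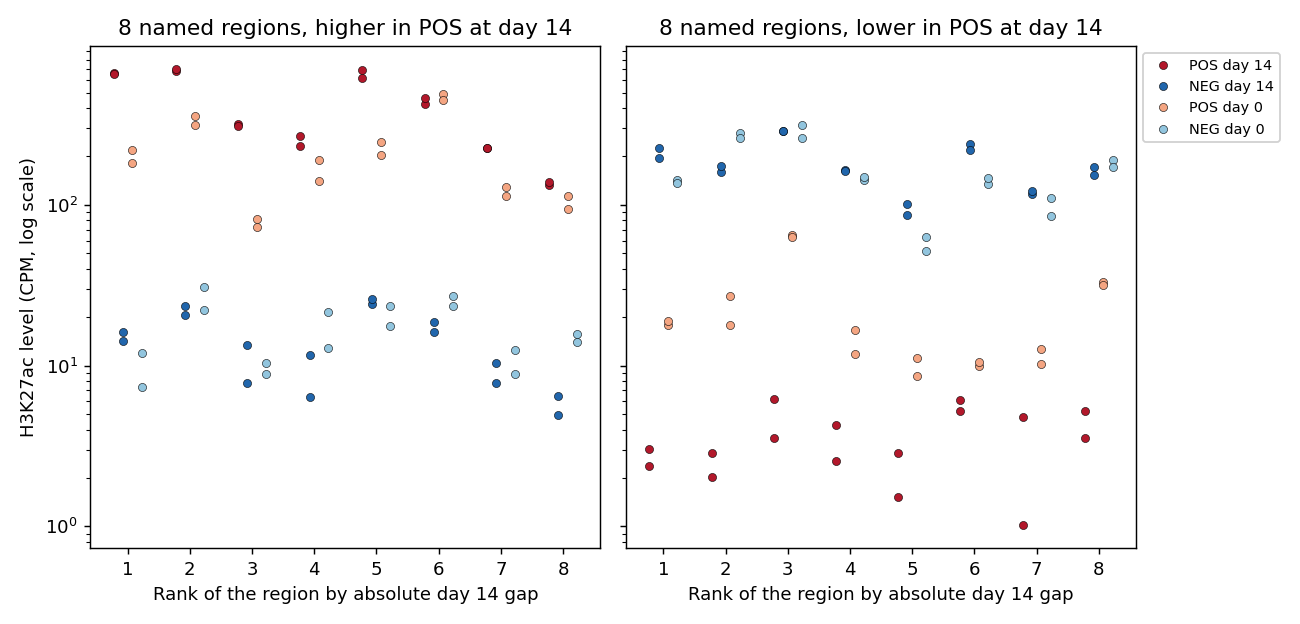
H3K27ac level (CPM, log axis) in each library at the 8 regions highest in POS (left) and the 8 lowest in POS (right) at day 14, ranked by absolute gap; each point is 1 library. POS and NEG libraries do not overlap at day 14, which the choice of these regions required. They do not overlap at day 0 either, and in the right panel the POS day 14 points lie below the POS day 0 points.

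Some regions that marked 1 subpopulation at day 0 had a smaller gap or none called at day 14. The 4 largest such changes among regions higher in POS at day 0 were -3.27 to -2.94. At chr18:43901768-43902769 the level was 43.4 and 44.1 CPM in POS day 14 and 48.8 and 32.2 CPM in NEG day 14, against 242 and 192 CPM in POS day 0 and 21.5 and 24.9 CPM in NEG day 0. The groups overlapped at day 14 and were far apart at day 0. At chr6:12354710-12355711 it was 76.4 and 78.5 CPM in POS day 14 and 72.2 and 66.4 CPM in NEG day 14, against 206 and 186 CPM in POS day 0 and 25.0 and 20.2 CPM in NEG day 0. There POS was lower and NEG higher at day 14 than at day 0. The gap at chr4:125352505-125353506 was 0.15 ± 0.22 at day 14 and 3.26 ± 0.14 at day 0. At chr4:3485808-3486809 it was 1.63 ± 0.17 at day 14 and 4.90 ± 0.20 at day 0, and it was the one of these 4 still called. A JUNB site was higher in POS in untreated cells in 2 of the 4, not called in 1 and absent in 1.

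Among regions lower in POS at day 0, the 4 largest narrowed gaps changed by 2.78 to 4.02. At chr7:7162563-7163564 the level was 39.1 and 51.2 CPM in POS day 14 and 39.6 and 54.8 CPM in NEG day 14, against 5.43 and 8.88 CPM in POS day 0 and 120 and 111 CPM in NEG day 0. Both subpopulations met at an intermediate level. At chr16:69238111-69239112 it was 91.2 and 89.2 CPM in POS day 14 and 128 and 122 CPM in NEG day 14, against 2.87 and 7.22 CPM in POS day 0 and 99.2 and 91.7 CPM in NEG day 0. At day 14 the POS libraries were still below NEG and the gap was still called, at -0.47 ± 0.13 (adjusted p = 0.00034 by edgeR). The gap was -0.33 ± 0.17 at day 14 and -3.26 ± 0.20 at day 0 at chr2:102641107-102642108, and -1.71 ± 0.16 and -4.49 ± 0.23 at chr3:193988489-193989490, where it was still called at day 14. A JUNB site was lower in POS in untreated cells in 3 of these 4, and 1 had no JUNB site.

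The 4 largest widened gaps were all lower in POS at day 14. At chr5:81684612-81685613 the level was 3.82 and 6.08 CPM in POS day 14 and 170 and 174 CPM in NEG day 14, against 89.4 and 75.0 CPM in POS day 0 and 165 and 154 CPM in NEG day 0. POS was near the floor at day 14, and NEG was close to its day 0 level. At chr8:96813504-96814505 it was 13.8 and 15.7 CPM in POS day 14 and 345 and 366 CPM in NEG day 14, against 161 and 143 CPM in POS day 0 and 237 and 262 CPM in NEG day 0. The gap at chr2:194688578-194689579 was -4.47 ± 0.26 at day 14 and -0.78 ± 0.12 at day 0, and chr7:40260834-40261835, described above, was the fourth. A JUNB site was lower in POS in untreated cells in all 4, against 28.5% of all matched regions.

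The 4 largest reversals went from higher in POS at day 0 to lower at day 14. At chr6:125064476-125065477 the level was 13.8 and 19.2 CPM in POS day 14 and 48.1 and 45.1 CPM in NEG day 14, against 158 and 147 CPM in POS day 0 and 16.5 and 14.0 CPM in NEG day 0. At chr3:32462970-32463971 it was 14.3 and 14.2 CPM in POS day 14 and 58.8 and 46.4 CPM in NEG day 14, against 150 and 119 CPM in POS day 0 and 29.6 and 31.1 CPM in NEG day 0. POS and NEG did not overlap at either day, in opposite order. At chr3:139021078-139022079 the gap was -3.99 ± 0.22 at day 14 and 0.92 ± 0.12 at day 0, and at chr8:67383058-67384059 it was -2.61 ± 0.18 and 1.71 ± 0.16. A JUNB site was higher in POS in untreated cells in 1 of these 4, lower in 1, not called in 1 and absent in 1.

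Other regions had a large gap at both days with no change called. Ranked by the smaller of their day 14 and day 0 gaps, the first 3 higher in POS were chr14:51027221-51028222, chr2:192033592-192034593 and chr2:192066808-192067809, with gaps of 4.37 to 4.65 at day 14 and 4.24 to 4.83 at day 0. The 2 on chromosome 2 start 33216 bases apart. At chr14:51027221-51028222 the NEG day 0 libraries held only 6 and 2 counts, and the change was -0.33 ± 0.52 (SE), so a change could be missed there. The level was 226 and 205 CPM in POS day 14 and 13.5 and 7.09 CPM in NEG day 14. At day 0 it was 51.7 and 43.9 CPM in POS and 2.31 and 1.04 CPM in NEG. At chr2:192033592-192034593 the level was 220 and 243 CPM in POS day 14 and 9.20 and 12.9 CPM in NEG day 14, against 390 and 391 CPM in POS day 0 and 12.7 and 15.0 CPM in NEG day 0. The 3 lower in POS were chr1:162825501-162826502, chr20:49970751-49971752 and chr19:54510939-54511940, with gaps of -4.84 to -4.43 at day 14 and -4.73 to -3.94 at day 0. At chr1:162825501-162826502 the level was 17.2 and 13.7 CPM in POS day 14 and 344 and 355 CPM in NEG day 14, against 16.3 and 18.9 CPM in POS day 0 and 470 and 451 CPM in NEG day 0. The choice of these 6 required a call in the same direction in the DMSO libraries. The change was called with scaling by total counts and by full lists at chr2:192033592-192034593 (-0.78 and -0.96) and at chr20:49970751-49971752 (-1.02 and -1.21), where it was -0.46 and -0.71 on the balanced scale. All 6 held a JUNB site called in the same direction as their gap.

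The gap was also measured after a short exposure. After 24 hours at 30 nM, 13282 of 18186 regions matched between the acute lists were called between POS and NEG (73.0%), against 12867 in DMSO (70.8%), and the change of the gap passed in 4650 (25.6%). Doses and times differ between the arms, so the values are given side by side. Over 9860 regions with all 4 gaps, the median absolute gap was 0.989 at day 14 against 0.668 at day 0, and 0.757 after 24 hours against 0.670 in DMSO. The change after 24 hours passed in 2830 of these regions. In 1972 of the 2830 the day 14 change passed too, where it passed in 62.6% of all matched regions. That base is over a larger set, and the share within the 9860 regions was not computed. Signs of both changes were the same in 1626 of the 1972 (82.5%), and the overlap was not tested. The day 14 and 24 hour arms share no library.

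Along the genome the median absolute gap was larger at day 14 than at day 0 on all 23 chromosomes (0.840 to 1.23 at day 14, 0.607 to 0.853 at day 0). On chromosome 19 the sizes lay closest, at 0.840 at day 14 and 0.836 at day 0. Its median signed gap was -0.16 at day 14, against -0.66 at day 0 and -0.82 in DMSO, and that of chromosome 16 was -0.18 at day 14, against -0.47 at day 0 and -0.62 in DMSO. On the balanced scale both chromosomes were lower in POS without drug and nearer to 0 at day 14. Chromosomes 14 and 17 had medians of 0.62 and 0.55 at day 14, against 0.38 and 0.20 at day 0. On chromosome 13 the median was 0.51 at day 14 and 0.61 at day 0.

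**Figure D5:**
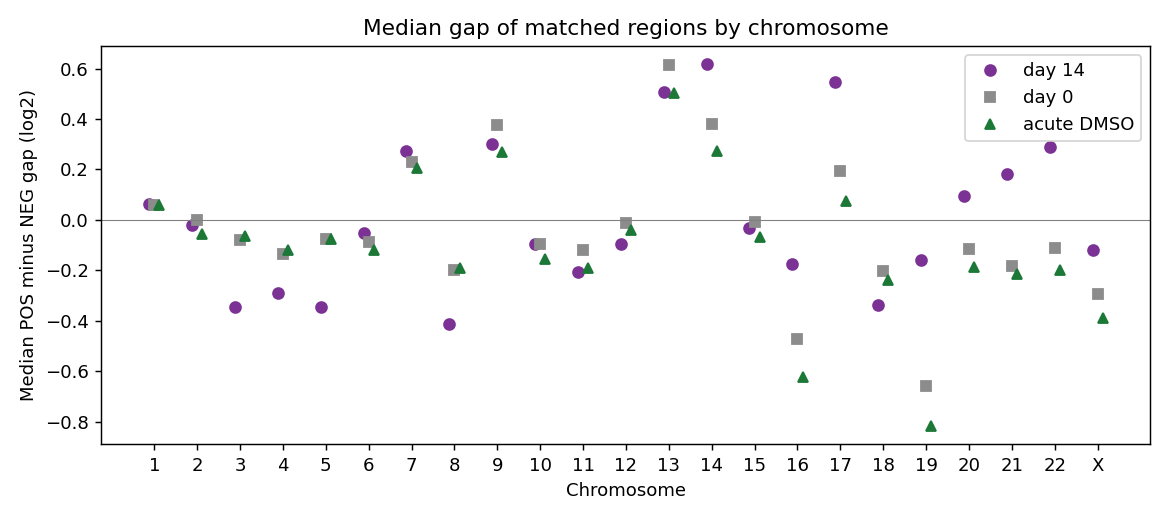
Median POS minus NEG gap (log2) of the matched regions on each chromosome at day 14, day 0 and in the untreated DMSO libraries; 1 point per chromosome and comparison. Day 0 and DMSO points lie close together, while day 14 points stand apart on chromosomes 16, 17, 19, 21 and 22, among others.

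The gap was also read over neighbouring regions, on the balanced scale. Of 395 windows of 5 Mb with at least 20 matched regions, 39 had a median gap beyond 1 in either direction at day 14, against 10 at day 0. The windows named here were picked with their values in view. The highest was on chromosome 6 from 50 to 55 Mb, with a median of 1.73 at day 14 and 0.75 at day 0 over 22 regions. On chromosome 14 from 100 to 105 Mb it was 1.67 at day 14 and 0.93 at day 0, with 35 of 42 regions higher and 3 lower in POS at day 14. The lowest was on chromosome 21 from 25 to 30 Mb, with -1.93 at day 14 and -1.65 at day 0 over 21 regions. On chromosome 1 from 215 to 220 Mb it was -1.65 at day 14 and -0.44 at day 0, with 33 of 43 regions lower in POS, and the median difference between days there was -1.31 in POS and -0.25 in NEG.

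Regions listed in only 1 subpopulation cannot be compared between the lists, but their response within it can be read. Of 28511 tested POS regions with no NEG match, 13793 rose and 8399 fell by day 14 (edgeR, scaled within the POS list, where 39.5% of all regions rose and 38.2% fell). Among them, 14141 had no region in the DMSO list either, and 64.3% of those rose, a direction that their absence from untreated cells favours by selection. Those with a DMSO region rose in 32.0% to 34.0%, by DMSO class. The 15793 tested POS regions with a NEG match went the other way, as 3729 rose (23.6%) and 8528 fell (54.0%). Their median response was -0.53 (log2) on the scale of the POS list. The balanced scale was set over the matched regions themselves, so a fall that they share is largely scaled away in the gaps above. Of 12389 tested NEG regions with no POS match, 3279 rose and 2499 fell (24.8% of all NEG regions rose and 23.8% fell). Of the 15790 with a POS match, 3715 rose (23.5%) and 4205 fell (26.6%). Regions of the opposite identity were read the same way. In the POS list, regions lower in POS in DMSO rose in 1397 of 5380 (26.0%) and fell in 2618 (48.7%). Regions higher in POS in DMSO rose in 4685 of 15885 (29.5%) and fell in 7531 (47.4%). These shares pool unlike sets, as 4741 of the 5380 had a NEG match but only 4255 of the 15885. With a match, the class lower in POS rose in 24.9% and fell in 50.2%, against 20.7% and 59.8% in the class higher in POS. Without a match the shares were 34.0% and 37.6%, against 32.7% and 42.9%. Within each set the order was thus opposite to the pooled one. In the NEG list, regions higher in POS in DMSO rose in 1416 of 4911 (28.8%) and fell in 926 (18.9%), and regions lower in POS in DMSO rose in 2173 of 10163 (21.4%) and fell in 2820 (27.7%). The difference between these shares was not tested.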

How the data were processed

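The authors deposited raw whole-number counts per region and library, not normalized. Trimming, alignment and region calling are known only from the submitters' processing notes, which list hg19, STAR 2.5.2b, cutadapt 1.12, MACS2, featureCounts and DESeq2 without settings. Inputs, the deposited comparison tables and POSR libraries were not used here. Counts of the 8 chronic libraries in regions matched at 50% reciprocal overlap were fitted together with edgeR 4.0.16 (limma 3.58.1, R 4.3.3): TMM scaling over matched regions, a minimum count of 10, which removed no matched region, log levels with a prior count of 2, quasi-likelihood tests and Benjamini-Hochberg adjustment over all 15794 regions, at 0.05. Acute trametinib columns carry another drug code and were mapped by table, subpopulation and replicate. Depth in full lists was 5472638 and 5172208 counts in POS day 14, 1861227 and 2051968 in NEG day 14, and 2619054 to 5713610 at day 0. In simulated data over 15793 regions, 100 regions were changed by 2-fold and 100 by 4-fold in POS day 14, as many up as down. All other regions were equal between groups. Of the changed regions the day 14 test recovered 86% at 2-fold and 100% at 4-fold, and the change test 70% and 100%. With so few changed regions the simulation cannot show how the scaling behaves where most regions differ, as in these data. Named regions passed the test with a level at or above the median and were ranked by absolute gap or change, at least 1 Mb apart. Those named for their day 14 gap also had to have POS and NEG day 14 values that did not overlap. The exception was the regions with a large gap at both days and no change called. They were ranked by the smaller of their day 14 and day 0 gaps with no minimum distance or level. The comparison, lists and rules were chosen with earlier results of these data known. No hg19 annotation was used, so regions carry no gene names and the gene lists were not used. Alternatives were DESeq2 1.42.0, other scalings, filters and overlaps, a replicate block and leaving out each library. Plots were drawn with matplotlib 3.10.9 from tables made in pandas 2.3.3 and python 3.11.15.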

Additional observations from a re-analysis of the deposited data

Results flagged for a closer look

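The POS minus NEG gap differed between day 14 and day 0 by the test of the difference itself (edgeR, adjusted over all matched regions) at 30 of the 36 named regions. The test passed in 62.6% of all matched regions, and regions were named for large gaps or changes, so the number is a description.

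Among the regions highest in POS at day 14, the gap was larger at day 14 than at day 0 by 0.99 at chr5:173886680-173887681, 1.33 at chr1:209556676-209557677, 1.88 at chr17:80453658-80454659 and 1.53 at chr7:104602685-104603686. It was larger by 1.21 at chr7:55087436-55088437, 1.07 at chr1:96208225-96209226 and 1.73 at chr10:116126558-116127559. The changes at chr5:173886680-173887681 and chr1:96208225-96209226 did not pass under every alternative.

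Among the regions lowest in POS at day 14, the change was -3.31 at chr8:85809794-85810795, -2.53 at chr2:105514332-105515333, -3.69 at chr7:40260834-40261835 and -2.14 at chr6:78166418-78167419. It was -2.77 at chr10:79049779-79050780, -1.54 at chr16:57033876-57034877, -2.17 at chr8:131244423-131245424 and -2.69 at chr10:128946626-128947627. The POS day 14 libraries held few counts in these regions, down to 2 counts in 1 library at chr8:131244423-131245424.

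Narrowed gaps changed by -3.27 at chr4:3485808-3486809, -3.13 at chr18:43901768-43902769, -3.1 at chr4:125352505-125353506 and -2.94 at chr6:12354710-12355711, which were higher in POS at day 0. They changed by 4.02 at chr7:7162563-7163564, 3.93 at chr16:69238111-69239112, 2.93 at chr2:102641107-102642108 and 2.78 at chr3:193988489-193989490, which were lower in POS at day 0.

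Widened gaps changed by -4.17 at chr5:81684612-81685613, -3.89 at chr8:96813504-96814505 and -3.69 at chr2:194688578-194689579. Reversed gaps changed by -4.91 at chr3:139021078-139022079, -4.8 at chr6:125064476-125065477, -4.32 at chr8:67383058-67384059 and -4.05 at chr3:32462970-32463971.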

How the results depend on the processing

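Day 14 gaps and changes of the named regions were recomputed under each alternative that gives them, and 1131 of 1144 values kept their direction and their side of the threshold. None reversed. The other 13 were changes: 9 fell below the threshold, at chr5:173886680-173887681 and chr1:96208225-96209226, and 4 passed it, at chr2:192033592-192034593 and chr20:49970751-49971752. The 1144 values come from 38 entries for 36 regions, as some regions stand in more than 1 list. They include the fit without a filter on low counts, which could not differ because the filter removed no region. Scaling by total counts in matched regions gave a median absolute gap of 1.05 at day 14, thinning to equal depth gave 1.03, cyclic loess 0.905 and quantile normalization 0.819. Scaling by full lists gave 2773 regions higher and 10344 lower in POS at day 14, 3732 higher at day 0, and median absolute gaps of 1.22 at day 14 and 0.814 at day 0. DESeq2 called 1089 narrowed gaps, against 1688 by edgeR, and the cause was not tested. Thinning, cyclic loess, quantile normalization and the set of regions with day 14 names were chosen after seeing the data. Fitted and scaled on their own, the 2809 regions with day 14 names gave 2188 calls at day 14 (1079 higher, 1109 lower) and 2051 at day 0 (1040 higher, 1011 lower). They gave 1397 changes (442 narrowed, 468 widened, 487 reversed) and a median absolute gap of 0.770 at day 14. Fewer regions were tested.

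Leaving out each library gave 11544 to 12599 calls at day 14 (5733 to 6253 higher, 5804 to 6346 lower), 10288 to 11428 at day 0 (5194 to 5778 higher, 5094 to 5725 lower) and 9000 to 9764 changes (1368 to 1766 narrowed, 3954 to 4207 widened, 3637 to 3791 reversed). Median absolute gaps were 1.02 to 1.03 at day 14 and 0.696 to 0.748 at day 0.

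Replicate numbers did not pair the libraries: correlations of same-numbered deviations between groups were -0.0116 to 0.102. With a replicate block 12477 regions were called at day 14, 11525 at day 0 and 9926 for the change, and no count moved by over 1.5 times. A fit of only the 2 groups compared gives no value for the change. Counts carry no molecular identifiers, and the POS day 14 values at the lowest regions rest on 13 counts or fewer per library.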
